A study of Fukomys damarensis with 16 samples.

Results

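The brain-restricted genes of the Damaraland mole-rat, Fukomys damarensis, were taken as the 200 genes of 21082 with the widest gap between brain and every other tissue. The gap of a gene is its lowest value in the 4 brain libraries minus its highest value in the other 12 libraries, both as log2(RPKM + 1), with ties settled by identifier. RPKM is the number of reads per kilobase of gene model and per 1e6 reads. The choice thus used every value of the contrast between brain and the other tissues, and the levels and gaps that follow from it are descriptions without a test.

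The study sequenced poly(A)+ RNA of 16 libraries from this colony-living, burrowing rodent. Brain, kidney and liver have 4 libraries each, from breeders of both sexes, from a male non-breeder of 5 years and from a female non-breeder of 3 years. Ovary has a breeding and a 3-year-old non-breeding female, and testis a breeding and a 5-year-old non-breeding male. The labels give no strain, genotype or treatment and no age for the breeders, so age cannot be told apart from status or, among non-breeders, from sex. The breeding male, breeding female and non-breeding female brain libraries are labelled frontal brain, and that of the non-breeding male carries the plain label brain. Each of the 16 groups is a single library, and nothing says which libraries share an animal or hold several animals, so p-values measure only the spread between these libraries.

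Brain tissue is made of neurons, which signal to each other at synapses, and of glia, which insulate axons, take up transmitters and survey the tissue. Genes read almost nowhere else in the body typically encode parts of synapses, ion channels, myelin and the factors that set neuronal identity. Testis is known for transcribing a wide range of genes at low level. In bulk tissue, fewer cells of a type and less RNA per cell cannot be told apart.

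None of the identifiers (0 of 21082, and 0 of the 200) matched an entry of RefSeq's gene table (assembly DMR_v1.0_HiC), so the files pair no identifier with a gene name. Roles of single genes, markers of cell types and sequences are for that reason not given. The brain label itself could not be set against marker genes. No more than 2 identifiers are printed for a direction of a comparison.

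A strict reading of the word restricted held for few of the genes. All 200 had at least 2 reads somewhere in the other 12 libraries (median 192.5, highest 8437), and 137 reached 1 RPKM in at least 1 of them. Under 0.5 RPKM in all 12 were 35 genes, and under 0.1 RPKM 2 genes. The genes were abundant in brain and present as traces elsewhere, as the heat map of their levels shows.

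**Figure D1:**
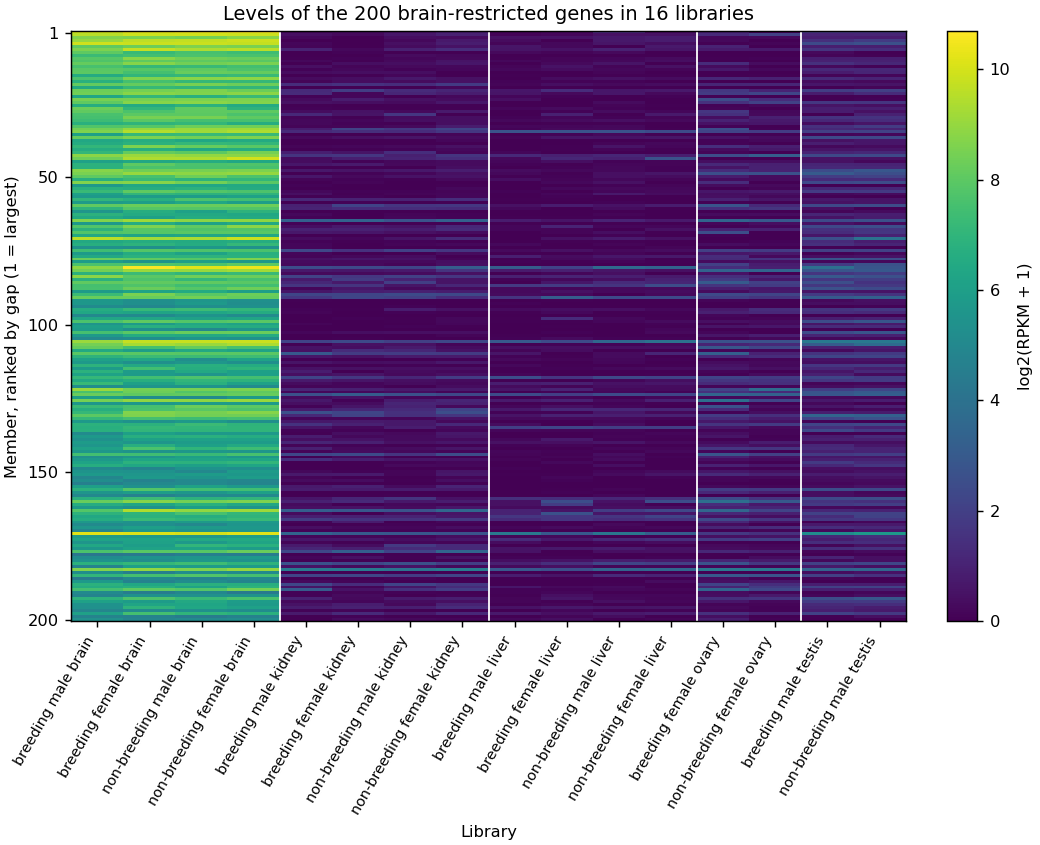
Levels of the 200 genes (rows, ranked by gap) in the 16 libraries (columns, grouped by tissue and parted by white lines), as log2(RPKM + 1). The 4 brain columns are bright throughout, the 2 testis columns are the next brightest, and the highest value outside brain is 53.9 RPKM.

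The gap was above 0 for 2757 genes, above 2 for 789 genes, above 3 for 412 genes, above 5 for 80 genes and above 7 for 5 genes. The gap of the 200 genes ran to 8.23, with a median of 4.77. Just inside the limit, the last gene but 1 (gap 4.01) stood at 20.9 to 26.6 RPKM in brain and at most 0.357 elsewhere, and the last gene (gap 4.0) at 28.0 to 40.8 RPKM and at most 0.814. The first genes left out (both with a gap of 3.99) were more abundant, at 275.4 to 373 RPKM in brain with at most 16.3 elsewhere, and at 122 to 164.3 with at most 6.74. The rule on log2(RPKM + 1) lets a gene in at a moderate brain level if it is nearly silent elsewhere, or with more reads elsewhere if its brain level is higher. Near silence elsewhere is not enough alone, and the lowest brain mean of the 200 genes was 20.5 RPKM.

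The widest gap belonged to DMR_17735, with a gene model of 585 bases. It stood at 1016 RPKM in the breeding male, 1372 in the breeding female, 1487 in the non-breeding male and 1646 in the non-breeding female brain. Its highest values elsewhere were 2.39 and 2.28 RPKM in the testes and 1.55 in the non-breeding male liver, and the other libraries lay between 0.0741 and 0.846. DMR_14715 (1815 bases) followed, with 770.6, 972.1, 984.8 and 929.3 RPKM in the brains in the same order, 3.03 in the ovary of the non-breeder and 1.40 in that of the breeder, 1.07 and 1.13 in the testes and less than 1 RPKM in every kidney and liver library. In both genes the breeding male brain held the lowest of the 4 values.

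In brain the 200 genes had a median of 125.4 RPKM (means of the 4 libraries, quartiles 63.7 and 255.5), against 13.99 for the 14343 genes with 1 RPKM or more in at least 2 brain libraries. All 200 passed that filter, which the choice by a high brain level makes certain. Brain means ran from 20.5 to 1380 RPKM, with 117 genes at 100 RPKM or more, 12 at 500 or more and 3 at 1000 or more. Among the 100 most abundant genes of brain 15 were brain-restricted, and among the 500 most abundant 86. Depth was ample there, with at least 212 reads for every gene in every brain library and a median over the genes of 2573 reads in the library with the fewest.

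The length of the gene models was not part of the rule, although both reads and RPKM depend on it. The 200 genes had a median length of 1344 bases (quartiles 789 and 2167, range 207 to 7065). The median was 1056 bases over all 21082 genes, but 1362 bases over the 5619 genes with a brain mean at least as high as the lowest of the 200. The genes were thus longer than most gene models, but close in length to other genes as abundant in brain.

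The brain libraries held 15393003 to 17541246 reads on genes and the others 15634095 to 27593857, as recovered from the RPKM values. The breeding male brain stood apart from the other 3 brain libraries in the 200 genes. Its reads on genes came to 0.781 of the read total by which its values had been scaled, against 0.871 to 0.928 in the other brains. Differences by status, sex and region label below are given also without single libraries where this moves them.

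The 200 genes together came to 33203 RPKM in the breeding male brain, 42662 in the breeding female, 41410 in the non-breeding male and 43441 in the non-breeding female brain (40179 ± 4725, SD, n = 4). As a share of reads on genes this was 6.33% in the breeding male (95% Wilson interval 6.32 to 6.35), 6.91% in the breeding female (6.89 to 6.92), 7.06% in the non-breeding male (7.05 to 7.08) and 7.05% in the non-breeding female brain (7.04 to 7.06). These intervals cover counting error only. The breeding male was lowest on both scales, and the other 3 lay close together. No single gene carried the sum, as the 10 most abundant genes made up 22.6% of it.

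Gene by gene, 123 of the 200 (61.5%) had their lowest brain value in the breeding male library. For all 14343 genes tested the share was 32.1%. The breeding female brain was lowest in 40 genes (20%, against 28.1% of all), the non-breeding male in 21 (10.5% against 20.7%) and the non-breeding female in 16 (8% against 19.0%). The highest value was in the breeding male for 30 genes (15% against 29.9%), in the breeding female for 56 (28% against 27.4%) and in each non-breeding brain for 57 (28.5%, against 22.2% for the male and 20.4% for the female). The rule looks at the lowest brain value whichever library holds it, so it names no library. It does favour genes with a wide gap and a high brain level. Over all genes tested, the difference of the breeding male brain from the other brains fell with the gap (Spearman's rho -0.28). It also fell with the mean brain level (Spearman's rho -0.24). The shares of all genes are matched for neither trait. Whether these traits account for the 61.5% was not tested.

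Each brain library was then compared with the mean of the other 3 on the log2(RPKM + 1) scale. This was planned for the library labelled brain and added for the other 3 libraries after the data were seen. In the breeding male brain the median difference of the 200 genes was -0.30 (quartiles -0.61 and 0.06), against -0.01 for all genes tested. It was 0.09 in the breeding female, 0.12 in the non-breeding male and 0.12 in the non-breeding female brain. Of the 200 genes, 63 (31.5%) were lower by 0.5 or more in the breeding male brain, against 12.9% of all genes tested, and 9 (4.5%) were higher by as much, against 10.8%. There 13 of the 200 were lower by 1 or more and 0 higher, against 236 lower and 198 higher of the 14343 genes tested. In the other brains 3 to 10 genes (1.5% to 5%) were lower by 0.5 or more, against 5.22% to 8.62% of all genes.

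**Figure D2:**
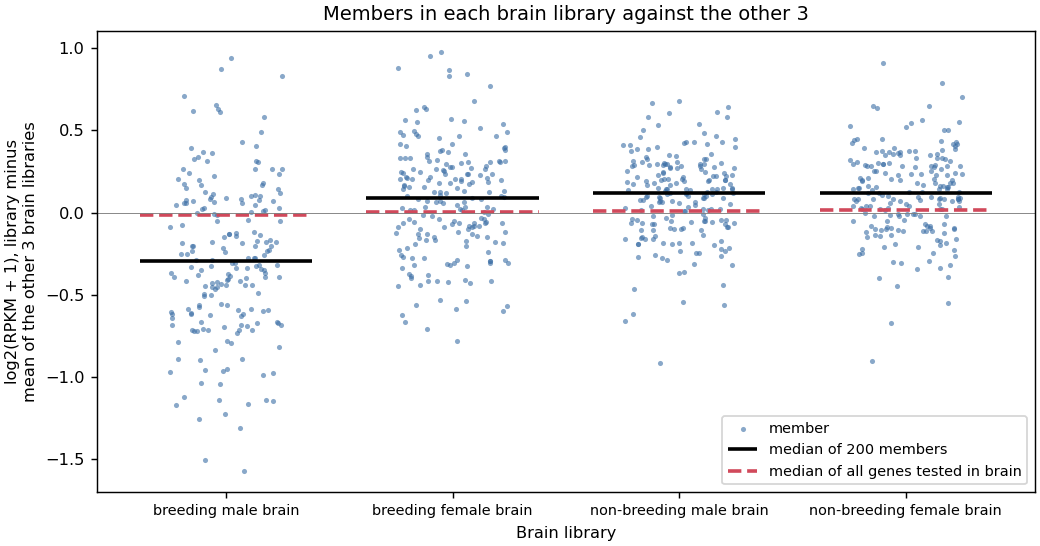
Difference of each of the 200 genes (points) between a brain library and the mean of the other 3, as log2(RPKM + 1), with the median of the 200 genes (solid line) and of the 14343 genes tested (dashed line). The solid line lies at -0.30 in the breeding male brain and between 0.09 and 0.12 in the other 3, while the dashed lines lie near 0.

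In limma fits of the breeding male brain against the other 3, none of the 200 genes (0) passed an adjusted p of 0.05 (lowest 0.0842), against a background of 0.0767% of genes called. Voom, limma's test on the recovered reads, called 2 of the 200, and 79 over all 14343 genes tested. These fits have an arm of 1 library. The spread of each gene comes from the other 3 alone and is moderated over all genes tested. The fits were run because this library had been seen to be low. Their counts thus describe that difference again and are no separate evidence of it. At an unadjusted p under 0.05, 56 of the 200 genes (28%) were lower against a background of 7.96% over all genes tested, and 8 (4%) were higher against 5.52%. For the breeding female brain limma called 0 of the 200, with 3 higher (background 3.17%) and 1 lower (background 2.77%) at an unadjusted p under 0.05. For the non-breeding female brain it called 0 as well, with 0 higher (background 0.544%) and 0 lower (background 0.858%) before adjustment. Scaling every brain library to the same sum of RPKM left 106 of the 200 genes lowest in the breeding male brain, with a median difference of -0.21 where that of all genes tested was 0.06. Quantile normalization gave -0.11 for the 200 genes and 0.00 for all genes.

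DMR_09254 had the lowest adjusted p of the 200 genes in that comparison. It stood at 139.1 RPKM in the breeding male brain, 408.3 in the breeding female, 355.1 in the non-breeding male and 427.8 in the non-breeding female brain (log2 difference -1.50, SE 0.244, limma adjusted p = 0.0842, range over the alternatives 0.0123 to 0.423). Outside brain it was read at 1.80 to 5.04 RPKM in the kidneys and at most 0.832 in liver, ovary and testis. DMR_04205, a model of 336 bases, had 463.7 RPKM in the breeding male brain against 1619, 1189 and 1363 in the others in the same order (log2 difference -1.57, SE 0.281, limma adjusted p = 0.123, range 0.00856 to 0.429). In both genes the breeding male value was less than any of the other 3, and voom alone put them past the threshold.

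The 30 genes with their highest value in the breeding male brain show that the library was not low throughout. DMR_15820 stood at 307.9 RPKM there, 129.9 in the breeding female, 266.9 in the non-breeding male and 117.6 in the non-breeding female brain. DMR_13865 (348 bases) stood at 145.4, 66.3, 108.1 and 69.0 RPKM. Both males lay above both females in each of the 2 genes. Against the other 3 brains the breeding male differed by 0.94 (SE 0.408, limma adjusted p = 0.357) and 0.87 (SE 0.302, limma adjusted p = 0.276).

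Among the 200 genes the difference of the breeding male brain was only weakly tied to abundance (Spearman's rho -0.26 with the mean brain level). It was less tied to length (-0.09) and to the gap (-0.07). The corresponding values over all genes tested were -0.24, -0.22 and -0.28. Over all genes tested, low values in this library thus went weakly with abundance, length and a wide gap. Low values there are not particular to the 200, though more frequent among them (61.5% lowest in this library, against 32.1% of all genes tested). These are descriptions across genes that share the same libraries. The parts that the scaling, the quality of the RNA and the place of dissection have in the difference were not tested.

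The 6 pairs of brain libraries differed in the same sense. The median absolute difference of the 200 genes was 0.16 between the breeding and non-breeding females, 0.20 between the non-breeding male and non-breeding female, and 0.26 between the breeding female and non-breeding male. Pairs with the breeding male gave 0.37 with each non-breeding brain and 0.42 with the breeding female. Differences of 2-fold or more on this scale were found in 0, 1 and 3 genes in the first group of pairs and in 11, 17 and 20 in the second. Over all genes tested the breeding male stood apart as well, with medians of 0.24 to 0.26 in the first group and 0.28 to 0.37 in the second, and with 2.18% to 2.71% and 3.56% to 8.35% of genes at 2-fold or more. Over all 4 brains the median SD of the 200 genes was 0.26 against 0.25 for all genes tested, and 28 (14%) varied by 2-fold or more against 13.8%. With a pseudocount of 0.1, which damps low values less, the latter share was 21.3% and that of the 200 genes again 14%.

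The choice of genes did not hinge on the breeding male brain. When it was left out of the choice, 185 of the 200 genes were chosen again. Leaving out the breeding female or the non-breeding male brain kept 194 and 196, and leaving out the non-breeding female brain kept all but 1. The brain library left out then gives values that the choice did not use, while the other side of the gap, the highest of the 12 other libraries, was still used. In each of the 4 cases all 200 newly chosen genes were at least 2-fold higher there than in every other tissue. The smallest gap was 2.52 in the breeding male, 3.63 in the breeding female, 3.49 in the non-breeding male and 3.94 in the non-breeding female brain. Of the 200 genes chosen without the breeding male brain, 136 were lower in it than in each of the other 3, against 46, 25 and 17 for the other libraries. A choice by the lowest of the brains kept itself favours genes that are low in the brain left out. All 4 counts lay above those of the main choice (123, 40, 21 and 16). They are no separate evidence that the breeding male brain was low.

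Breeding and non-breeding brains were compared in the 4 brain libraries with sex in the model, since kidney and liver hold almost no reads of these genes and cannot measure their spread. Limma called none of the 200 genes (0; background 0.0139%) and voom called 0 as well. At an unadjusted p under 0.05 the fit gave 0 of the 200 higher (background 0.913%) and 4 lower in breeding brains (background 0.662%). The 4 became 2 with equal sums of RPKM, 0 with quantile normalization and 9 with voom, and the 0 became 0, 0 and 1. The count of 4 also depends on single libraries. A fit without 1 library leaves a lone library in a group, so counts at that level from such fits are not given. The median difference of the 200 genes was -0.16, against -0.01 for all genes tested, with 152 lower (76%, against 51.5% of all genes) and 48 higher. This median was -0.02 without the breeding male brain and -0.29 without the breeding female brain.

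DMR_14030, a short model of 330 bases, had the most negative status difference among genes with an unadjusted p under 0.05. It stood at 317.1 RPKM in the breeding male, 651.5 in the breeding female, 680.8 in the non-breeding male and 978.1 in the non-breeding female brain (log2 difference -0.84, SE 0.366, limma adjusted p = 1.0, range 0.277 to 1.0). The difference was -0.32 without the breeding male and -1.36 without the breeding female brain. DMR_11591 (543 bases) stood at 151.3, 191.6, 313.1 and 255.3 RPKM (log2 difference -0.73, SE 0.336, limma adjusted p = 1.0, range 0.338 to 1.0), with -0.56 to -0.90 when 1 library was left out. Breeding and non-breeding values did not overlap in either gene, but the differences did not pass the threshold.

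Male and female brains were compared in the same fit. Limma called none of the 200 genes (0; background 0.195%). Voom called 1 of the 200, and 42 over all 14343 genes tested. At an unadjusted p under 0.05 there were 4 higher in males (background 2.38%) and 12 lower (background 3.62%). The 12 became 3 with equal sums of RPKM and 3 with quantile normalization, and the 4 became 6 and 7. Both counts also moved when 1 library was left out. Those fits leave a lone library in a group, so their counts are not given. The median difference of the 200 genes was -0.13, against 0.00 for all genes, and -0.02 without the breeding male brain. It was 0.01 with quantile normalization, where that of all genes was 0.01, and 0.00 with voom, where that of all genes was 0.13. The set thus lay below all genes by as much with voom as in the log2(RPKM + 1) fit, but not with quantile normalization.

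The gene called by voom was DMR_15820, the one at 307.9 and 266.9 RPKM in the male and 129.9 and 117.6 in the female brains. Its log2 difference was 1.21 (SE 0.323, limma adjusted p = 0.309), and 1.35 by voom (adjusted p = 0.00269). Over all alternatives the difference stayed between 1.10 and 1.37 and the adjusted p between 0.00269 and 0.868. Without the breeding male brain the difference was 1.10. Traces of the gene were 0.889 and 0.863 RPKM in the testes, 0.0973 and 0 in the ovaries, and at most 0.231 in kidney and liver, where a few reads allow no comparison of the sexes. DMR_13865 differed by 0.88 (SE 0.312, limma adjusted p = 0.647).

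Lower in males at an unadjusted p under 0.05 were DMR_04205 (log2 difference -1.0, SE 0.43, limma adjusted p = 0.808) and DMR_17490. The latter, a model of 3108 bases, stood at 68.2 RPKM in the breeding male, 201.5 in the breeding female, 125.1 in the non-breeding male and 164.1 in the non-breeding female brain (log2 difference -0.97, SE 0.344, limma adjusted p = 0.648). Without the breeding male brain the differences of DMR_04205 and DMR_17490 were -0.32 and -0.54, and without the non-breeding male brain -1.68 and -1.40.

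The library labelled brain, that of the non-breeding male, was set against the 3 labelled frontal brain. Region, class and age cannot be told apart in it. Limma called none of the 200 genes (0), with a background of 0.0% of genes called, and voom called 0. At an unadjusted p under 0.05 there were 0 higher (background 1.03%) and 1 lower (background 1.49%). The median difference of 0.12 became -0.02 without the breeding male brain. The 1 gene, DMR_21644 (1713 bases), stood at 38.04 RPKM in the library labelled brain and at 68.8, 79.0 and 70.0 RPKM in the breeding male, breeding female and non-breeding female frontal brains (log2 difference -0.91, SE 0.29, limma adjusted p = 0.999). The difference of DMR_21644 was -0.95 without the breeding male and -0.85 without the breeding female brain. Counts of the 200 genes at that level rose in both directions without the breeding male brain. They are not read further, as 1 arm is a lone library. With 1 library of the label brain, this is a comparison of that library and not of regions.

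Outside brain the 200 genes were read most in testis and least in liver. Since the rule caps these values, they are described only. Their summed level was 395.98 and 436.5 RPKM in the testis of the breeder and the non-breeder, 320.5 and 226.5 in the ovary of the breeder and the non-breeder, 177.8 ± 16.3 in kidney (SD, n = 4) and 114.3 ± 15.7 in liver (SD, n = 4). Set against the mean brain sum this was 0.986% and 1.09% in testis, 0.798% and 0.564% in ovary, 0.392% to 0.489% in kidney and 0.246% to 0.318% in liver. As a share of reads on genes the traces were 0.0958% and 0.0987% in testis and 0.00742% to 0.0113% in liver. Liver values had been scaled by a total smaller than the reads on genes, and with equal sums of RPKM liver came to 0.114% of brain and testis to 1.20%.

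**Figure D3:**
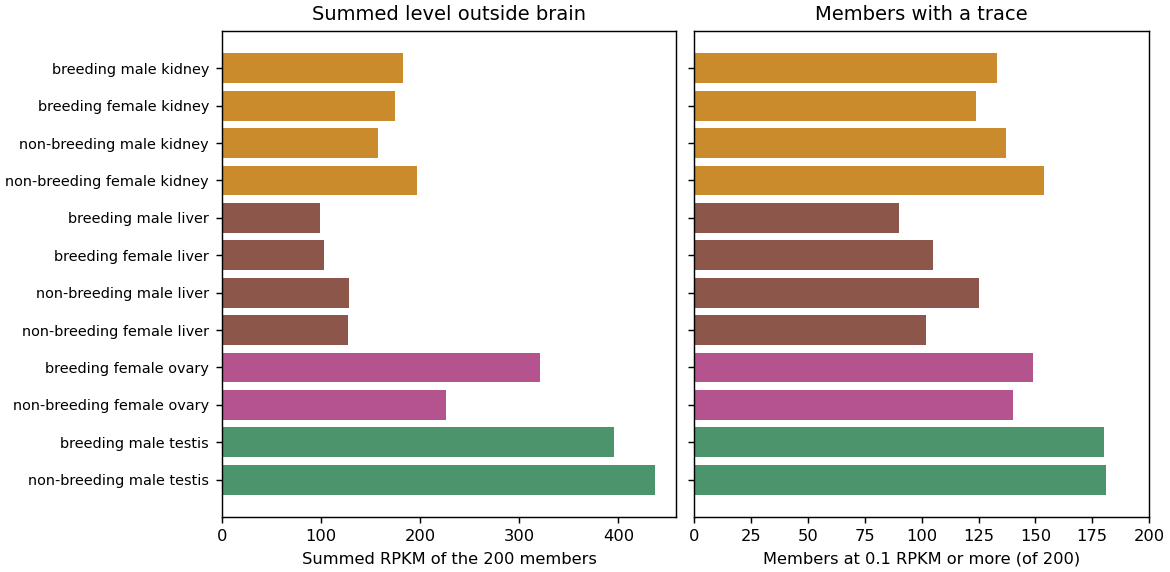
Summed RPKM of the 200 genes (left) and the number of them at 0.1 RPKM or more (right) in each library outside brain, coloured by tissue. Both testis bars exceed all others on either side, at 395.98 and 436.5 RPKM and 180 and 181 genes, and the 4 livers have the lowest sums.

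Gene by gene, testis was the highest of the 4 tissues more often than not. The tissue with the highest mean was testis for 118 genes, ovary for 48, kidney for 26 and liver for 8, and with equal sums of RPKM 135, 51, 13 and 1. Every testis library lay above every liver library in 142 genes, and the reverse held in 5. Testis lay above ovary without overlap in 111 genes and below it in 38. Ovary lay above kidney in 69 genes and below it in 27, and kidney above liver in 45 and below it in 12. These counts cannot be set against each other, since 2 libraries against 2 part more easily than 4 against 4. They and the counts of the highest mean were made for the brain-restricted genes only. Whether testis ranks above the other tissues as often among all genes was not tested, so the order is not shown to be particular to this set.

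A mean of 1 RPKM or more was reached by 99 genes in testis, 72 in ovary, 41 in kidney and 21 in liver. Such a level was reached in none of the 4 tissues by 80 genes, in 1 tissue by 53, in 2 by 35, in 3 by 18 and in all 4 by 14. No read at all was found for 4 genes in the testes, 17 in the ovaries, 9 in the kidneys and 16 in the livers. A count of 0 allows up to 3 reads, which for a model of the median length amounts to 0.0573 to 0.168 RPKM depending on the library. Values below that rest on 1 or 2 reads for such a model.

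A few genes made up much of the traces in the low tissues. The 10 highest supplied 53.8% of the sum in liver, 40.4% in kidney, 34.3% in ovary and 32.6% in testis. Reaching 10 RPKM in at least 1 library outside brain were 13 of the 200 genes. DMR_15585 was highest in kidney (19.3 to 21.5 RPKM in 3 libraries and 16.5 in the non-breeding male) and in ovary (18.3 and 18.5). It also stood at 5.18 to 10.9 RPKM in liver and 9.71 and 10.7 in testis, against 386.9 to 515.1 in brain. Its 8437 reads outside brain make it the least restricted of the set by reads.

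DMR_06887 was highest in testis and liver. It stood at 53.9 RPKM in the non-breeding and 35.6 in the breeding testis, at 18.2 and 16.9 in the livers of the breeding and non-breeding males, and at 6.61 and 7.83 in those of the breeding and non-breeding females. In brain it stood at 1185 RPKM in the breeding male, 1098 in the breeding female, 1013 in the non-breeding male and 1192 in the non-breeding female. Male and female liver values did not overlap, which was noticed after the values were seen and not tested.

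The sums of the 4 tissues did not overlap, but libraries of 1 tissue also differed. In kidney the non-breeding female library had the fewest reads on genes (15634095) and still the highest sum (196.6 RPKM), the most genes with a read (176) and the highest value of 73 genes. In liver the non-breeding male library held the highest value of 72 genes and had 125 genes at 0.1 RPKM or more, against 90 in the breeding male. The livers of both non-breeders summed to 127.9 and 127.8 RPKM and those of both breeders to 98.95 and 102.7. As a share of reads on genes the order differed, with 0.0113% in the breeding female liver, 0.0109% and 0.01001% in the non-breeding female and male livers and 0.00742% in the breeding male liver, so a difference by status depends on the scale.

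The gonads were compared by status without a replicate. In the ovary 117 of the 200 genes were higher and 66 lower in the breeding library, with a median log2 difference of 0.07 against 0.00 for all 21082 genes. Higher by 2-fold or more on the log2(RPKM + 1) scale were 19 genes (9.5%), where the background was 4.25%, and 1 was lower by as much, where it was 1.28%. In the testis 83 genes were higher and 113 lower in the breeding library, with a median of -0.04 against -0.03 for all genes (106 higher and 90 lower with equal sums of RPKM), 2 genes 2-fold higher (background 0.465%) and 1 lower (background 1.94%). With 1 library of each kind, status, age and animal cannot be told apart in these values.

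**Figure D4:**
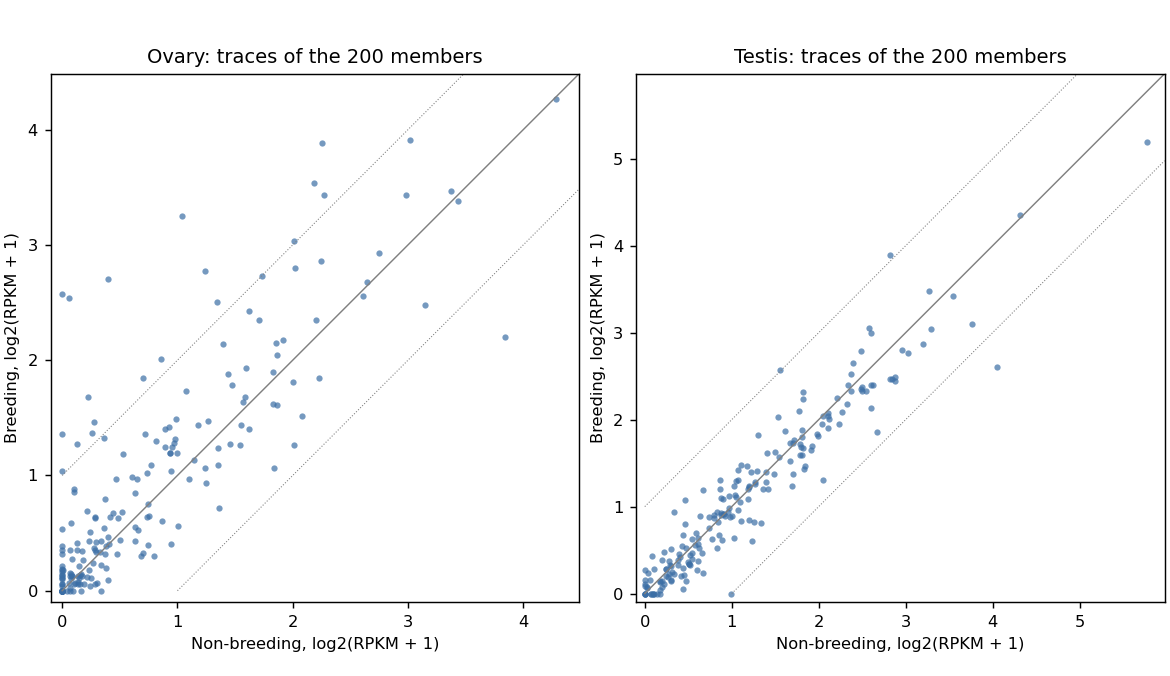
Traces of the 200 genes in the breeding (vertical) against the non-breeding library (horizontal) of ovary (left) and testis (right), as log2(RPKM + 1), with the line of equality and dotted lines at a 2-fold difference. In ovary 19 genes lie above the upper dotted line and 1 below the lower one, and in testis 2 and 1.

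The highest ovary ratio was that of DMR_05012, at 4.96 RPKM (187 reads) in the breeder's ovary and 0 in the other. Set against the 3 reads that a count of 0 allows in that library (0.104 RPKM) it was at least 47.4-fold higher. In brain the same gene was steady, at 222.2, 234.4, 249.5 and 249.3 RPKM. The lowest ratio was that of DMR_17501, at 3.61 RPKM (120 reads) in the breeder's ovary and 13.3 (337 reads) in the other, with 542.7 RPKM in the breeding male brain and 347 to 383.9 in the other 3. DMR_11591 was also among the genes with a higher trace in the breeding ovary, at 5.53 against 0.319 RPKM.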

How the data were processed

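The deposited table holds RPKM values per gene and library, made by the authors; the submitters' processing notes name TopHat 1.3.1, with counter, build and annotation not given in the sources used here. Whole reads and gene lengths (in steps of 3 bases) were recovered from these RPKM for 21082 of 21082 genes, with rebuilt values within 2.93e-14 of the deposited ones. The steps were tested on simulated data, drawn a single time for each comparison. Limma's calls held 17.1% false ones for sex and 16.0% for region label, more than the adjusted threshold allows, and 4.35% for status. Status comes from the same fit as sex, so its lower share is no sign of safer calls. Calls and adjusted p-values of all these comparisons are to be taken as too favourable. A gene read in few libraries may be given too few reads by a whole factor.

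The main test was limma's (version 3.58.1, R 4.3.3; lmFit, eBayes with trend) on log2 of RPKM plus a pseudocount of 1, with Benjamini-Hochberg adjustment over 14343 genes. Status and sex were fitted together (1 residual degree of freedom), and the region label alone (2). Per direction, the 2 genes with the largest difference at an unadjusted p under 0.05 were named, as none passed the adjusted threshold, also the 2 with the widest gap, the highest in each other tissue and the extremes of the ovary ratio. Members, lists and tests were chosen with earlier results of these data known.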

Additional observations from a re-analysis of the deposited data

Results flagged for a closer look

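DMR_17735 stood at 1.55 RPKM (12 reads) in the non-breeding male liver, far from the other livers (0.122, 0.223 and 0.232 RPKM, from 1 or 2 reads each). Of the 200 genes, 12 (6%) had 1 brain library as far from the other 3 by this measure, 9 of them with the breeding male brain low, 2 with the breeding female and 1 with the non-breeding female brain low. Chance gives about 1 in 20 groups of values.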

How the results depend on the processing

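No paired analysis was possible because each group holds 1 library and the labels carry no replicate numbers. The number of the 200 genes called was 0 in the comparisons of status, sex, region label and the breeding male brain under every alternative run except voom, with 1 for sex and 2 for the breeding male brain. Over all genes, status gave 2 calls, and 6 with any RPKM above 0, 1 with 1 RPKM in all 4 brains, 14 with voom, 0 with status alone in the model and 0 with 12 libraries; leaving out a brain library gave 0 (either male) to 16 (the breeding female). Sex gave 28 calls, and 4 with 1 RPKM in all 4 brains, 6 with sex alone and 8 with 12 libraries; leaving out a library gave 0 (the breeding male) to 27 (the non-breeding female), with 9 and 12 without the non-breeding male and the breeding female. The region label gave 0 calls, and 0 to 79 when a frontal library was left out (2 without the non-breeding and 79 without the breeding female). The breeding male brain gave 11 calls, and 0 with any RPKM above 0, 19 with 1 RPKM in all 4 brains, 7 without a trend and 79 with voom. Fits without a library hold status or sex alone and assume that a lone library varies like the others.

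Of the 200 genes, 167 were chosen with a pseudocount of 0.1, 184 with equal sums of RPKM, 143 by means and 187 to 200 without 1 other library. With equal sums the traces came to 0.359% of brain in kidney (0.442% as deposited), 0.114% in liver (0.285%) and 1.20% in testis (1.04%). With a pseudocount of 0.1, 45 genes were 2-fold higher and 14 lower in the breeding ovary (11.1% and 4.32% of all genes) and 9 and 11 in the breeding testis (4.32% and 6.66%); with equal sums 2 were lower in testis. Counting error is small in brain and large for traces of a few reads.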
